A study of Mus musculus with 6 samples.

Results

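The genes of major histocompatibility complex (MHC) class II antigen presentation were examined in mouse bone marrow cells that carry B220, the form of the CD45 phosphatase found on B-lineage cells. The 10 genes were H2-Aa, H2-Ab1, H2-Eb1, H2-DMa, H2-DMb1, H2-DMb2, H2-Oa, H2-Ob, Cd74 and Ciita, taken by symbol as 10 of the 27761 rows of the deposited expression table. There were 2 groups, with 3 libraries labelled PELI2-CKO, whose genotype is given as PELI2 knockout, and 3 libraries labelled WT. The labels name no promoter or Cre driver for the knockout, and no strain, age, sex, treatment or number of animals for either group. Peli2 encodes a Pellino E3 ubiquitin ligase that acts downstream of Toll-like and interleukin-1 receptors. The question posed by the design is which genes differ in B220+ cells between the genotypes.

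Class II molecules present peptides of endocytosed protein to CD4+ T cells. An alpha and a beta chain assemble in the endoplasmic reticulum on the invariant chain, which is encoded by Cd74 and fills the groove until proteases cut it down to the CLIP peptide. The DM heterodimer then exchanges CLIP for other peptides, and the DO heterodimer, found mainly in B cells and some dendritic cells, inhibits DM. The transactivator CIITA switches on the classical chains, the invariant chain and DM by docking onto factors bound at the X and Y boxes of the promoters. Class II expression increases as B cells mature in marrow.

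All 10 genes were well expressed in both groups, and none passed the test between them, where 3 of 12953 tested genes did (0.0232%). The mean FPKM of 9 of the 10 genes was higher in libraries labelled PELI2-CKO, by 1.03 to 1.21 times, and the mean of H2-Ob was lower. The difference was within the spread between libraries for every gene but H2-DMa, and 1 library, WT replicate 1, was the lowest of the 6 for each of the 10 genes. As a ratio within a library to 7 of the other 9 genes, H2-Ob, the beta chain of DO, was lower in each library labelled PELI2-CKO than in any WT library. That count was made after the values were seen and has no test, Ciita was lower in this way against 5 of the other 9, and 15 of all 45 pairs had groups apart.

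Promoter stretches of 5 class II genes on chromosome 17 (RefSeq, GRCm38.p6) are shown because the X and Y boxes are the sequences through which CIITA acts. Whether it acts on each of these 5 genes was not tested. Capitals mark a Y box motif, TGATTGG, and, where present, the X1 box motif, which leaves some positions free. Each stretch is written 5′ to 3′ in the direction of its gene.
H2-Aa: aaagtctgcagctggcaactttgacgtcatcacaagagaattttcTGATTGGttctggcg
H2-Eb1: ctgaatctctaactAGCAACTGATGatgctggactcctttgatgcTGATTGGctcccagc
H2-DMb2: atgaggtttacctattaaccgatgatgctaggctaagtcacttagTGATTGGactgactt
H2-Oa: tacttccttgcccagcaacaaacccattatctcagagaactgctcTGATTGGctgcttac
H2-Ob: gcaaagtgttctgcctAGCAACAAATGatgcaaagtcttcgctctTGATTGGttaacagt
The positions are chr17:34287859-34287918 on the minus strand for H2-Aa, and on the plus strand chr17:34305761-34305820 for H2-Eb1, chr17:34145112-34145171 for H2-DMb2, chr17:34092289-34092348 for H2-Oa and chr17:34238801-34238860 for H2-Ob.

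RefSeq promoters were at hand for 7 of the 10 genes, all but H2-Ab1, Cd74 and Ciita. In the 250 bases before the start site, searched on both strands, TGATTGG was found in 6 of the 7 genes and in 7.23% of 32851 mouse promoters. This 7-base form was chosen after the sequences were seen, and it contains the Y box core ATTGG, which 33.8% of promoters hold. The longer form CTGATTGG stood in H2-Aa, H2-Eb1 and H2-Oa and in 3.83% of promoters. The X1 motif stood in H2-Eb1, H2-DMb1, H2-Ob and H2-Oa and in 2.60% of promoters. X1 and Y motifs were 20 bases apart in H2-Eb1, 21 in H2-DMb1 and 18 in H2-Ob, but 85 apart in H2-Oa, where the X1 match lies outside the stretch shown. The 2 RefSeq windows of H2-DMa held neither TGATTGG nor the X1 motif, but they lie at chr17:34122582-34122881 and chr17:34125268-34125567, upstream of the start that the deposited table gives, and the bases before that start were not searched. The H2-DMb2 stretch lies inside the span that the deposited table gives for that gene, 34143307 to 34151553. That of H2-DMb1, not shown, lies at chr17:34153083-34153142, after the deposited start of 34153072, with all 60 bases in annotated exons. Of the H2-Oa stretch 9 bases are exonic. A match describes the letters in these windows and not a bound site.

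Levels are given as FPKM, the fragments of a gene scaled to transcript length and to the mapped reads of the library, which can be compared between genes. Means are given ± SD over n = 3 libraries a group. Depth, worked out from the steps between low FPKM values, was 16595000 to 18115000 reads a library. The FPKM of all genes summed to 331189 to 338098 in libraries labelled PELI2-CKO, against 309301 to 323155 in WT libraries. That sum was lowest in WT replicate 1 and highest in PELI2-CKO replicate 3. The targeted gene did not separate the groups: Peli2 stood at 3.07, 2.70 and 2.47 FPKM in libraries labelled PELI2-CKO, against 2.03, 2.54 and 1.99 FPKM in WT libraries (difference 0.556 FPKM, two-sided exact permutation test, p = 0.2, the smallest that 3 against 3 allow being 0.1). The gene value does not separate exons, and directions below are those of the label. Genes were tested with limma on log2(FPKM + 1) and called at an adjusted p under 0.05. Whether the replicates came from separate animals is not in the labels, so the p-values measure only the spread between these samples, which may be technical.

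The classical chains form the molecule that displays the peptide. H2-Aa, the alpha chain of I-A (ENSMUSG00000036594, GRCm38 chromosome 17, 34282744 to 34287827), stood at 345, 302 and 400 FPKM in libraries labelled PELI2-CKO, against 226, 352 and 292 FPKM in WT libraries. H2-Ab1, its beta chain (ENSMUSG00000073421, chromosome 17, 34263209 to 34269418), stood at 464, 389 and 486 FPKM, against 327, 430 and 389 FPKM in WT libraries. H2-Eb1, the beta chain of I-E (ENSMUSG00000060586, chromosome 17, 34305877 to 34316199), stood at 469, 401 and 519 FPKM, against 309, 480 and 413 FPKM in WT libraries. For all 3 genes the groups overlapped, with PELI2-CKO replicate 3 highest and WT replicate 1 lowest. The log2 fold change was 0.28 for H2-Aa (standard error 0.18, limma adjusted p = 0.444), 0.23 for H2-Ab1 (0.13, adjusted p = 0.405) and 0.22 for H2-Eb1 (0.18, adjusted p = 0.527). Without WT replicate 1 these fold changes were 0.11, 0.12 and 0.05.

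The invariant chain was the most abundant of the 10 messages. Cd74 (ENSMUSG00000024610, chromosome 18, 60803848 to 60812646) stood at 1753, 1555 and 1825 FPKM in libraries labelled PELI2-CKO, against 1253, 1715 and 1472 FPKM in WT libraries. The groups overlapped, since WT replicate 2 lay above PELI2-CKO replicate 2. The log2 fold change was 0.22 (standard error 0.14, limma adjusted p = 0.452), 0.10 without WT replicate 1 and 0.02 after quantile normalization.

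The DM chains exchange CLIP for other peptides in the endosome. H2-DMa, the alpha chain (ENSMUSG00000037649, chromosome 17, 34135182 to 34139101), stood at 69.6, 63.3 and 72.1 FPKM in libraries labelled PELI2-CKO, against 53.0, 60.6 and 58.4 FPKM in WT libraries. It was the only one of the 10 genes whose groups did not overlap, where 25.8% of all tested genes had groups apart. Its log2 fold change of 0.25 (95% interval 0.07 to 0.43) did not pass after adjustment (limma adjusted p = 0.189). It was also the only one of the 10 with an unadjusted p under 0.05, where 18.1% of tested genes had one. None of the 50-base windows of its protein-coding transcripts occurs in another gene.

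The beta chain of DM has a pair of neighbouring copies in the mouse. H2-DMb1 (ENSMUSG00000079547, chromosome 17, 34153072 to 34160230) stood at 60, 51.9 and 63.1 FPKM in libraries labelled PELI2-CKO, against 38.4, 60.3 and 46.3 FPKM in WT libraries. H2-DMb2 (ENSMUSG00000037548, chromosome 17, 34143307 to 34151553) stood at 87.2, 78.2 and 99.0 FPKM, against 64.2, 101 and 77.7 FPKM in WT libraries. The groups overlapped for both copies, and WT replicate 2 was the highest library for H2-DMb2. Their log2 fold changes were 0.28 for H2-DMb1 (limma adjusted p = 0.401) and 0.14 for H2-DMb2 (adjusted p = 0.697), and that of H2-DMb2 was -0.02 without WT replicate 1. Of the 50-base windows of their protein-coding transcripts, the length of a read here, 27.2% of those of H2-DMb1 and 25.9% of those of H2-DMb2 also occur in another gene, mostly the other copy. The division of reads between the copies is uncertain for that reason, and with the values of both copies added up, a step taken once the ratios had been seen, the log2 fold change was 0.20 (limma adjusted p = 0.568).

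DO, the inhibitor of DM, gave the smallest differences beside Ciita. H2-Oa, its alpha chain (ENSMUSG00000024334, chromosome 17, 34092340 to 34095234), stood at 27.1, 21.6 and 29.2 FPKM in libraries labelled PELI2-CKO, against 19.0, 27.5 and 24.6 FPKM in WT libraries. H2-Ob, its beta chain (ENSMUSG00000041538, chromosome 17, 34238903 to 34245907), stood at 71.4, 68.8 and 85.7 FPKM, against 68.2, 90.1 and 76.2 FPKM in WT libraries. Both overlapped between groups, and for H2-Ob PELI2-CKO replicates 1 and 2 lay close to WT replicate 1, the lowest library. The log2 fold change was 0.13 for H2-Oa (limma adjusted p = 0.692) and -0.05 for H2-Ob (95% interval -0.35 to 0.25, adjusted p = 0.858). Leaving out a library turned both signs: H2-Oa was at -0.01 without WT replicate 1, and H2-Ob at 0.06 without WT replicate 2 and 0.01 without PELI2-CKO replicate 2. Of the 50-base windows of H2-Oa, 21.7% also lie in BC051537, an antisense gene, whose reads cannot be told apart from it without strand.

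Ciita, which encodes the transactivator (ENSMUSG00000022504, chromosome 16, 10480059 to 10528418), was the least abundant of the 10. It stood at 13, 11.6 and 14.3 FPKM in libraries labelled PELI2-CKO, against 10, 14.9 and 13 FPKM in WT libraries. Both the lowest and the highest library were WT. The log2 fold change was 0.05 (95% interval -0.29 to 0.38, limma adjusted p = 0.883), and it was -0.10 without WT replicate 1, -0.02 without PELI2-CKO replicate 3, -0.02 with library weights and -0.02 with every library brought to 1 total. The gene value does not separate the alternative promoters through which dendritic cells, B cells and interferon-treated cells start this gene.

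**Figure D1:**
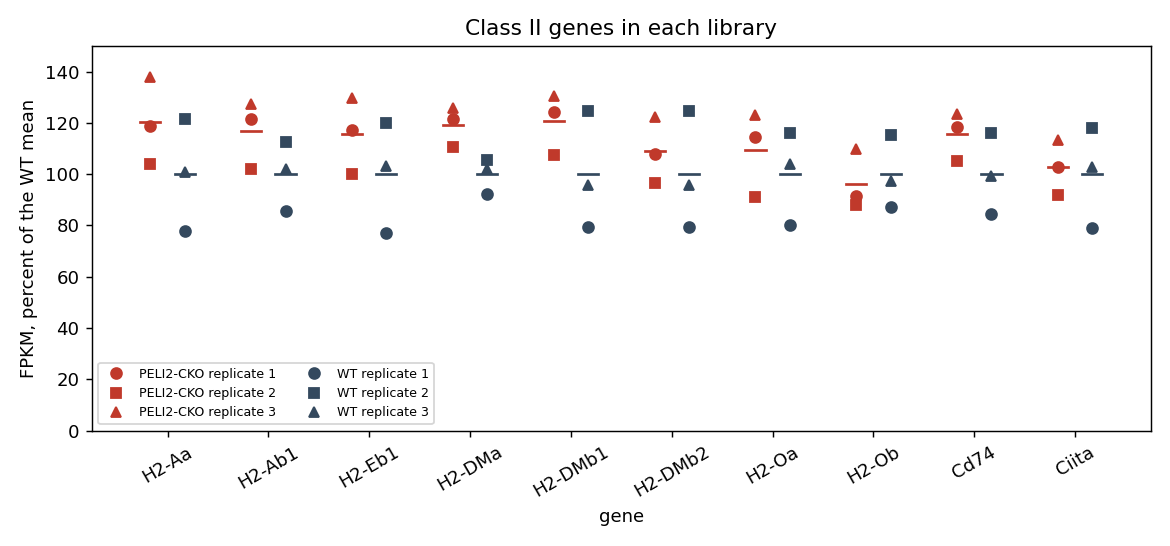
FPKM of each of the 10 class II genes in each library, as a percentage of the mean of the WT libraries of that gene. Points are libraries, and short lines are group means (n = 3 a group). WT replicate 1 is the lowest library for each gene, at 77.3% to 92.4% of the WT mean, and the groups are apart only for H2-DMa.

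**Figure D2:**
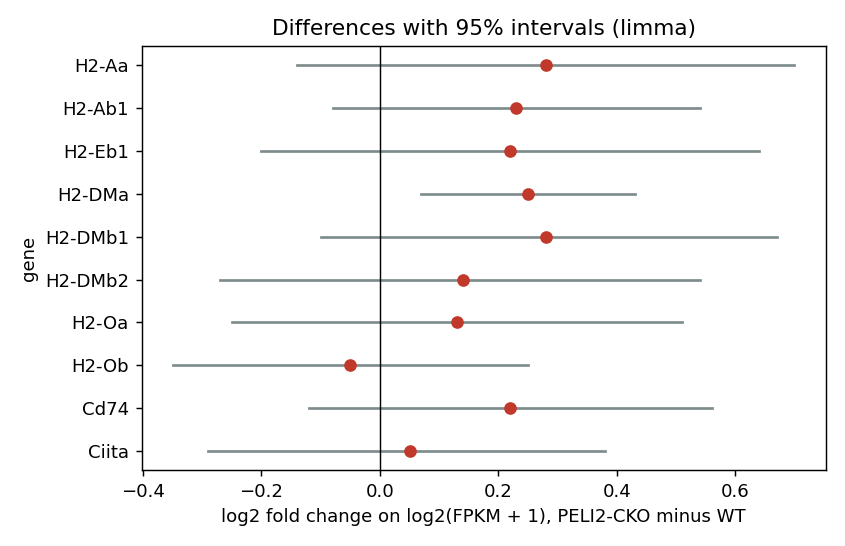
Log2 fold change of each class II gene on the log2(FPKM + 1) scale, libraries labelled PELI2-CKO minus WT libraries, with 95% limma intervals (n = 3 a group). The interval of H2-DMa, 0.07 to 0.43, is the only one that leaves out 0, before adjustment over all genes.

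The members kept 1 order of level in both groups. From high to low the means were 1711 ± 140 FPKM in libraries labelled PELI2-CKO and 1480 ± 231 FPKM in WT libraries for Cd74, 463 ± 59.1 and 401 ± 85.7 FPKM for H2-Eb1, 446 ± 51.0 and 382 ± 52.3 FPKM for H2-Ab1, and 349 ± 49.2 and 290 ± 63.0 FPKM for H2-Aa. Next came H2-DMb2 at 88.1 ± 10.4 and 81.0 ± 18.7 FPKM, H2-Ob at 75.3 ± 9.10 and 78.1 ± 11.1 FPKM, H2-DMa at 68.3 ± 4.57 and 57.3 ± 3.92 FPKM and H2-DMb1 at 58.3 ± 5.79 and 48.3 ± 11.1 FPKM, in the same order of groups. H2-Oa at 25.9 ± 3.93 and 23.7 ± 4.33 FPKM and Ciita at 13 ± 1.34 and 12.6 ± 2.44 FPKM were last. The ranges over libraries overlapped in both groups for H2-Eb1 and H2-Ab1, for H2-Ab1 and H2-Aa, and for H2-DMb2 and H2-Ob. They also overlapped for H2-Ob and H2-DMa in libraries labelled PELI2-CKO. In WT libraries they overlapped as well for H2-DMa and H2-DMb1 and for H2-Eb1 and H2-Aa. Compared within each library, H2-Ab1 was above H2-Aa throughout. H2-Ob was above H2-DMa in each library labelled PELI2-CKO, and H2-DMa above H2-DMb1 in each WT library.

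The class II genes varied more within a group than the median expressed gene, in a comparison that was not matched on level. Their coefficient of variation in WT libraries ran from 6.83% for H2-DMa to 23.1% for H2-DMb2, where the median over 5489 tested genes with a mean of 10 FPKM or more was 6.06%. In the libraries labelled PELI2-CKO it ran from 6.68% for H2-DMa to 15.2% for H2-Oa, where that median was 4.63%. PELI2-CKO replicate 3 was the highest library for 7 of the 10 genes, and WT replicate 2 for the other 3, H2-DMb2, H2-Ob and Ciita. The median log2 fold change over the 10 was 0.22, where that over all tested genes was -0.01, and it was 0.08 with 6 of 10 means higher when WT replicate 1 was left out. A higher mean on the log2 scale was seen for 9 of the 10 genes and for 46.4% of all tested genes.

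Ratios between members within a library do not change when a library is scaled by 1 factor, although quantile normalization can change them. H2-Aa over H2-Ab1, the chains of I-A, was 0.744, 0.776 and 0.823 in libraries labelled PELI2-CKO, against 0.692, 0.818 and 0.751 in WT libraries. Cd74 over H2-Aa was 5.08, 5.15 and 4.56, against 5.54, 4.87 and 5.04 in WT libraries. H2-Eb1 over H2-Ab1 was 1.01, 1.03 and 1.07, against 0.948, 1.11 and 1.06 in WT libraries. The groups overlapped for these 3 ratios. They did not for H2-Aa over H2-Eb1, which was slightly higher in each library labelled PELI2-CKO than in any WT library. Of the 9 pairs of each gene with the other members, 4 had groups apart for H2-Aa, 2 for H2-Ab1, 3 for H2-Eb1 and 2 for Cd74.

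DO relative to DM gave a different picture for its chains. H2-Ob over H2-DMa was 1.03, 1.09 and 1.19 in libraries labelled PELI2-CKO, against 1.29, 1.49 and 1.30 in WT libraries, and the groups did not overlap. H2-Oa over H2-DMa was 0.390, 0.341 and 0.404, against 0.358, 0.454 and 0.421 in WT libraries, and the groups overlapped. Over all pairs, a count made after the values were seen, the ratio of H2-Ob to 7 of the other 9 members was lower in every library labelled PELI2-CKO than in any WT library, the exceptions being H2-Oa and Ciita. H2-Ob over H2-Aa, for example, was 0.207, 0.228 and 0.214, against 0.302, 0.256 and 0.261 in WT libraries. Pairs share genes and are not independent, and no test was made of the ratios.

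The ratio of H2-DMb1 to H2-DMb2 was nearly constant in WT libraries. It was 0.687, 0.664 and 0.638 in libraries labelled PELI2-CKO, against 0.598, 0.596 and 0.597 in WT libraries. The groups did not overlap, and the value rests on how reads common to both copies were divided.

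**Figure D3:**
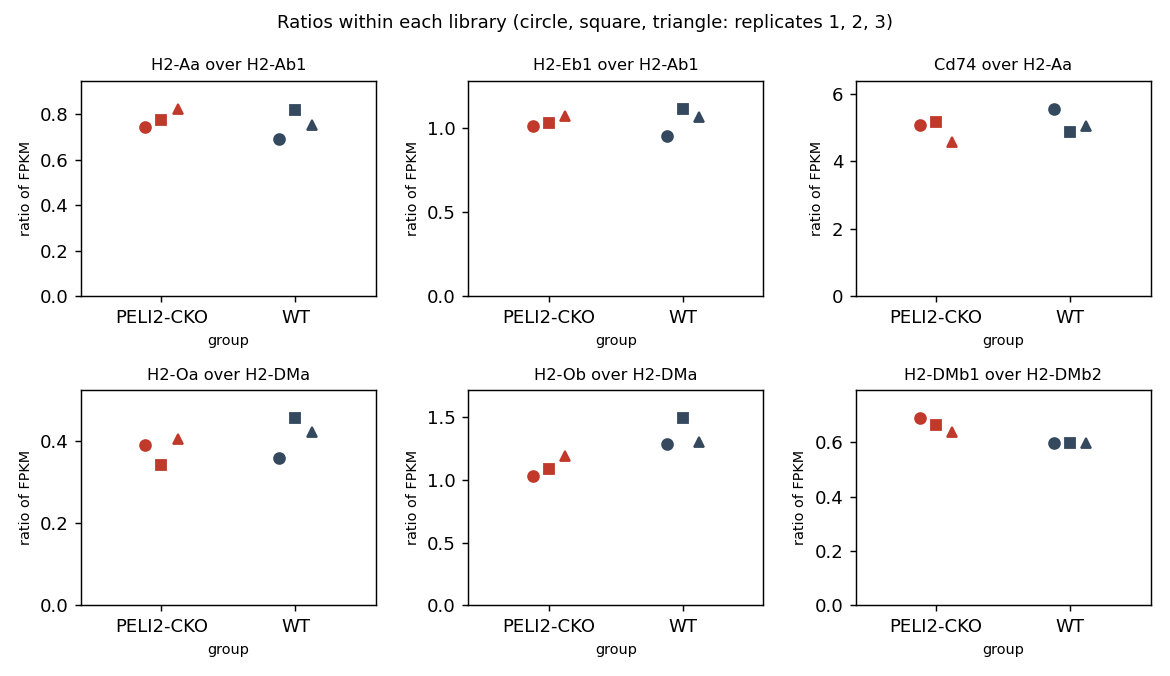
Ratios of FPKM between pairs of class II genes in each library (points), with the libraries labelled PELI2-CKO on the left of each panel and WT libraries on the right, n = 3 a group. Groups are apart for H2-Ob over H2-DMa, lower in libraries labelled PELI2-CKO, and for H2-DMb1 over H2-DMb2, higher there.

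The rest of the pathway was described from a list of 32 genes with a row, 29 of them tested. None passed after adjustment in either direction (limma), while an unadjusted p under 0.05 was reached by 4 with a higher and 7 with a lower mean. Over all tested genes those shares were 9.20% and 8.88%. The split depended on the libraries and the scaling, with 2 higher and 6 lower without PELI2-CKO replicate 1, 3 and 3 without PELI2-CKO replicate 3, 6 and 5 without WT replicate 2, 5 and 5 with library weights, and 2 and 9 with every library brought to 1 total. The median log2 fold change of the list was 0.03.

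Of the other class II loci only H2-Eb2, a second I-E beta gene, was tested. It stood at 8.95, 7.67 and 10.4 FPKM in libraries labelled PELI2-CKO, against 6.0, 9.15 and 7.53 FPKM in WT libraries (limma adjusted p = 0.464), with the same highest and lowest libraries as H2-Eb1. H2-Ea-ps, annotated as a pseudogene of the I-E alpha chain that H2-Eb1 would pair with, stayed between 0.0807 and 0.684 FPKM in the 6 libraries.

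Genes that process antigen and the invariant chain had 7 of 7 mean log2 values higher in libraries labelled PELI2-CKO, with a median log2 fold change of 0.22, although that of Lgmn, an asparagine endopeptidase, was 0.00. Ctsb, the lysosomal protease cathepsin B, stood at 117, 112 and 126 FPKM, against 86.0, 99.5 and 104 FPKM in WT libraries, with groups apart (limma adjusted p = 0.188). Ctsl, cathepsin L, stood at 22.6, 18.2 and 23.3 FPKM, against 13.8, 18.3 and 15.9 FPKM in WT libraries (limma adjusted p = 0.209). Ctss, cathepsin S, which trims the invariant chain in B cells and dendritic cells, stood at 130, 120 and 145 FPKM, against 100, 123 and 115 FPKM in WT libraries (adjusted p = 0.300). Ifi30, a thiol reductase that unfolds disulfide-bonded antigen, stood at 114, 106 and 105 FPKM, against 100, 103 and 93.9 FPKM in WT libraries (adjusted p = 0.302). Myeloid cells also make these proteases in abundance.

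Regulators of Ciita lay on both sides. Spi1, the PU.1 factor of B and myeloid cells, stood at 59.5, 62.6 and 59.8 FPKM in libraries labelled PELI2-CKO, against 54.0, 52.7 and 54.7 FPKM in WT libraries (limma adjusted p = 0.171). Pax5, the factor that maintains B cell identity, stood at 85.5, 86.7 and 80.1 FPKM, against 123, 108 and 98.7 FPKM in WT libraries (adjusted p = 0.151). Foxo1, a factor of early B cell development, stood at 22.6, 24.1 and 20.2 FPKM, against 31.7, 29.2 and 25.9 FPKM in WT libraries (adjusted p = 0.166). Groups were apart for all 3, with Spi1 higher and Pax5 and Foxo1 lower in libraries labelled PELI2-CKO. Of all tested genes, 25.8% had groups apart. Irf8, a factor of B cells and dendritic cells, averaged 152 ± 12.2 FPKM, against 130 ± 4.22 FPKM in WT libraries (adjusted p = 0.208). Among the 8 regulators, 2 with a higher and 5 with a lower mean had an unadjusted p under 0.05.

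The factors that bind the X and Y boxes had small differences. Groups were apart and lower in libraries labelled PELI2-CKO for 3 of them, Nfya, Nfyb and Creb1. Of all tested genes, 14.3% had groups apart and lower. All 7 (Rfx5, Rfxap and Rfxank at X1, Creb1 beside it, and Nfya, Nfyb and Nfyc at Y) lay between -0.14 and 0.00 in log2 fold change. Nfya stood at 25.3, 24.7 and 22.9 FPKM in libraries labelled PELI2-CKO, against 28.2, 26.6 and 26.0 FPKM in WT libraries (limma adjusted p = 0.256), with an unadjusted p under 0.05. Rfx5 stood at 8.92, 8.74 and 7.79 FPKM, against 9.27, 9.28 and 8.36 FPKM in WT libraries, with groups that overlapped.

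Surface turnover and costimulation held the smallest p of the list. Cd40, a costimulatory receptor that binds CD40L on T cells, stood at 8.51, 8.20 and 8.63 FPKM in libraries labelled PELI2-CKO, against 10.4 FPKM in each WT library (log2 fold change -0.27, limma adjusted p = 0.137). March1, a ubiquitin ligase that sends class II molecules for degradation, averaged 7.19 ± 1.35 FPKM, against 6.26 ± 1.79 FPKM in WT libraries (adjusted p = 0.641). Cd83, which protects class II from that ligase, averaged 42.8 ± 6.15 FPKM, against 38.7 ± 7.63 FPKM in WT libraries (adjusted p = 0.652).

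**Figure D4:**
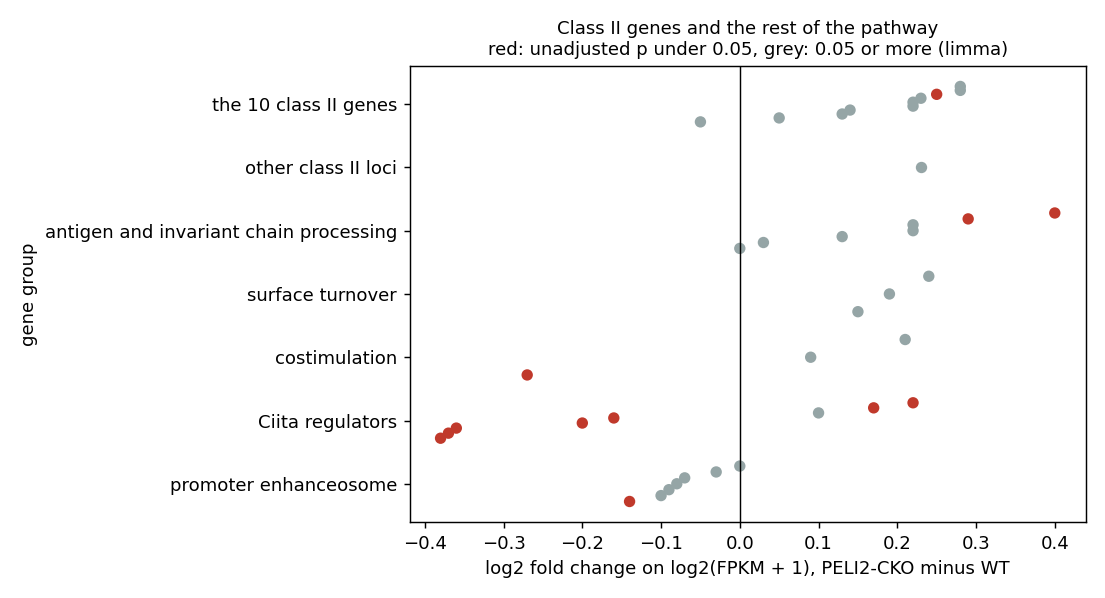
Log2 fold change on the log2(FPKM + 1) scale, libraries labelled PELI2-CKO minus WT libraries (n = 3 a group), for the 10 class II genes and the 29 tested pathway genes by role. Each point is a gene, red at an unadjusted p under 0.05. None passed after adjustment over 12953 genes, and red points lie on the higher side for proteases and on both sides for regulators of Ciita.

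The genes most like the class II core were sought by Pearson's r over the 6 libraries with the mean log2 value of H2-Aa, H2-Ab1 and Cd74. Among the 8 highest of 7620 eligible genes were Plec, H2-Eb2, Acat1, Antxr2, Psmd6, Notch2 and Ints4, with r from 0.999 to 0.987, and 150 genes reached 0.9. Plec, which encodes the cytoskeletal linker plectin, stood at 11.5, 10.6 and 12.3 FPKM in libraries labelled PELI2-CKO, against 9.06, 11.3 and 10.4 FPKM in WT libraries. With 6 libraries and this many genes high values of r are common, and they are given as a description. Among the 7 members outside that core r was lowest for H2-Ob, at 0.657, and for Ciita, at 0.879, and it was 0.912 or more for the others.

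Marker genes of the cell types that make class II were looked at beside them, and none passed over all genes (limma). The 8 B lineage genes had lower means in libraries labelled PELI2-CKO, with a summed level of 1324 to 1366 FPKM, against 1541 to 1907 FPKM in WT libraries. Cd79a, a chain of the B cell receptor and a check of the B220 gate, stood at 488, 504 and 516 FPKM, against 724, 602 and 583 FPKM in WT libraries. The 8 pro-B and pre-B genes, of stages with little class II, summed to 367 to 415 FPKM, against 429 to 637 FPKM in WT libraries. The 8 immature and mature B genes overlapped, at 471 to 573 FPKM, against 468 to 587 FPKM in WT libraries. WT replicate 1 had the lowest sum for mature B genes and the highest for the B lineage list. Fewer cells of a type and less RNA per cell cannot be told apart in such bulk samples.

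RNA of marker genes of other class II expressing cells was measured in these B220+ cells. A sort on B220 would keep plasmacytoid dendritic cells and remove most conventional dendritic cells, monocytes and macrophages. The 8 conventional dendritic cell genes summed to 44.3 to 52.4 FPKM in libraries labelled PELI2-CKO, against 32.4 to 38.4 FPKM in WT libraries, with the defining markers Zbtb46, Xcr1 and Batf3 near 0 and under the filter in both groups. Clec10a, a lectin of dendritic cells and macrophages, had the highest mean of that list, at 18.0, 13.1 and 15.8 FPKM, against 8.53, 12.2 and 10.4 FPKM in WT libraries. The 8 plasmacytoid dendritic cell genes summed to 910 to 1020 FPKM, against 862 to 983 FPKM in WT libraries, with 7 of 8 means higher. Spib, which B cells also express and which had the highest mean of the list, stood at 370, 373 and 340 FPKM, against 555, 409 and 399 FPKM in WT libraries. Of the 8 genes, 6 had groups apart and higher in libraries labelled PELI2-CKO, where 11.5% of all tested genes did. The list's mean log2 value was 5.93 to 6.14, against 5.68 to 5.77 in WT libraries. The 8 monocyte and macrophage genes summed to 133 to 193 FPKM, against 95.5 to 163 FPKM in WT libraries, with 8 of 8 means higher. These sums overlapped, and 3 of the 8 genes had groups apart and higher. The log2 fold change was 0.04 for C1qa and 0.07 for C1qb.

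RNA of marker genes of cells that make little class II, which a B220 sort would also remove, was measured as well. The 8 neutrophil granule genes summed to 7072 to 8562 FPKM in libraries labelled PELI2-CKO, against 4342 to 5991 FPKM in WT libraries, and the 8 erythroid genes to 12899 to 16295 FPKM, against 8679 to 13008 FPKM in WT libraries. The 8 T and NK genes summed to 137 to 145 FPKM, against 129 to 134 FPKM in WT libraries. Of the 7 tested, 4 had a higher and 3 a lower mean, and the list's mean log2 values overlapped between groups. Groups were apart and higher for Cd4 and Nkg7, and apart and lower for Cd2, where 25.8% of all tested genes had groups apart. Cd2, with the highest mean of the list, stood at 52.8, 55.6 and 49.9 FPKM, against 72.1, 62.7 and 61.3 FPKM in WT libraries. No marker was at 0 in any library. The part of these cell types in the class II values was not tested.

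**Figure D5:**
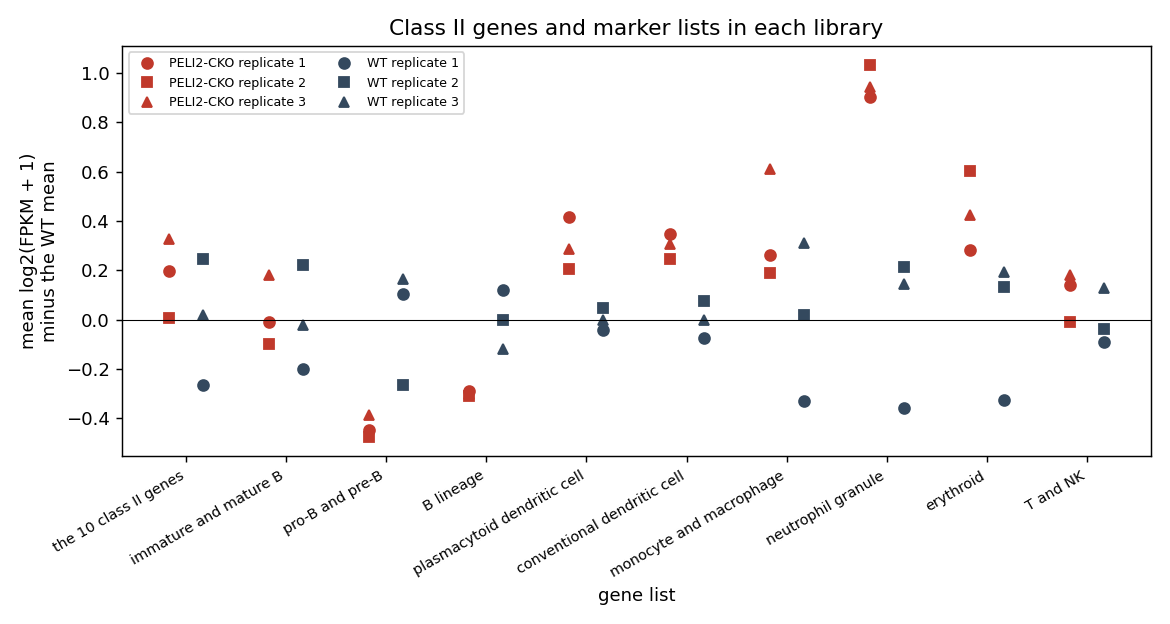
Mean log2(FPKM + 1) of the 10 class II genes and of each marker list in each library (points), minus the mean of the WT libraries for that list, n = 3 a group. The class II genes and the immature and mature B genes overlap between groups with WT replicate 1 lowest, while the neutrophil granule, erythroid and both dendritic cell lists are apart and higher in libraries labelled PELI2-CKO, and the B lineage and pro-B and pre-B lists are apart and lower there.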

How the data were processed

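Messenger RNA of bone marrow B220+ cells was sequenced as single-end reads of 50 bases, per the labels' protocols. Software listed without a role, per the submitters' processing notes, was RSEM 1.2.12, Bowtie2 2.2.5, HISAT2 2.0.4 and DESeq2 1.4.5, and the build was GRCm38.p6. The values used are the FPKM the authors deposited, per gene and library, with no scaling across libraries stated. Strand use is not given in the sources used here.

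Rows were matched to GENCODE M21 by ID (27725 of 27761, and 95.6% of those with identical coordinates). Depth was found from genes with 1 annotated transcript, as the library total at which FPKM times length gave whole reads within 0.03 below 6 reads for most genes (99.3% to 99.5% of 3761 to 4162 genes). At the lowest depth 1 FPKM on 1 kb is 16.6 reads.

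The filter kept genes with at least 1 FPKM in 3 or more libraries. The test was that of limma 3.58.1 (R 4.3.3) on log2(FPKM + 1) (lmFit, eBayes with a trend, two-sided, Benjamini-Hochberg over 12953 genes). The pseudocount of 1 makes fold changes of low genes smaller. All 10 members passed the filter in every library. The fit was tested on simulated data, where a log2 change of 0.25 was recovered for 21 of 150 changed genes (14.0%). A change of 0.5 was recovered for 106 of 150 (70.7%). A gene that was not called can thus still differ by such an amount. The changed genes were drawn at random from expressed genes, each with its own spread. The class II genes varied more than the median expressed gene, so these shares do not give the recovery for them.

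Members and lists were chosen with earlier results of these data known. The text names all members, the pathway genes with the smallest p per role, the marker genes with the highest mean and the 8 genes most alike, 1 of which is not reported here. The list symbols H2-Ea, Marchf1 and Marchf8 had no row. Other pseudocounts, filters, scalings, a fit without trend, library weights, a replicate block and each library left out were tried. Python 3.11.15 and matplotlib 3.10.9 made the figures.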

Additional observations from a re-analysis of the deposited data

How the results depend on the processing

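None of the 10 class II genes and none of the pathway genes passed under any of 16 other settings. H2-Aa, H2-Ab1, H2-Eb1, H2-DMa, H2-DMb1 and Cd74 kept a higher mean in all 16, with H2-DMa between 0.18 and 0.30 (log2; adjusted p 0.158 to 0.386, limma). The sign turned for Ciita (-0.02 rescaled to a common total, -0.02 with library weights, -0.02 without PELI2-CKO replicate 3, -0.10 without WT replicate 1), H2-Ob (0.01 without PELI2-CKO replicate 2, 0.06 without WT replicate 2, within a range of -0.14 to 0.06 over the left-out libraries), H2-DMb2 (-0.02 without WT replicate 1) and H2-Oa (-0.01 without WT replicate 1), and the cause was not tested. The median of the members ran from 0.08 to 0.31 over the left-out libraries, lowest without WT replicate 1, and was 0.15 rescaled to a common total, 0.12 with quantile normalization and 0.16 with library weights. Over all genes 1 was called with a filter of 5 FPKM, 6 without a trend and 1 to 13 with a library left out, 13 of them without PELI2-CKO replicate 3, where 3 were called with all libraries. The Peli2 difference ran from 0.395 to 0.733 FPKM over the left-out libraries. Same-numbered libraries deviated together with r of 0.101, 0.0362 and 0.0901, so the numbers were not taken to pair them. The replicate block gave 4 calls over all genes and 0 among the members, with H2-DMa at 0.25 (adjusted p = 0.210, limma).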

Other observations

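The class II genes share their stretch of chromosome 17 with other genes of antigen presentation, which did not follow them across libraries. This interval was looked at after the values were seen. It runs from H2-Oa to H2-Eb1 (GRCm38, 34092340 to 34316199) and holds 18 rows, 8 of them class II members. Tap1 and Tap2, the subunits of the peptide transporter of class I presentation, stood between H2-DMb1 and H2-Ob. Tap1 was at 47.6, 46.2 and 49.5 FPKM in libraries labelled PELI2-CKO, against 49.6, 46.5 and 52.6 FPKM in WT libraries, and Tap2 at 24.5, 23.5 and 24.2 FPKM, against 24.3, 23.6 and 24.3 FPKM in WT libraries. Psmb8, a subunit of the immunoproteasome, was at 42.6, 38.5 and 43.8 FPKM, against 40.6, 37.2 and 42.0 FPKM in WT libraries. Psmb9, another subunit, was at 28.8, 25.8 and 28.4 FPKM, against 28.4, 24.8 and 30.5 FPKM in WT libraries. WT replicate 1, the lowest library for each class II gene, was not the lowest for any of these 4 genes. Their limma adjusted p lay between 0.670 and 0.989.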
